A study of Drosophila melanogaster with 6 samples.

Results

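The nuclear genes of oxidative phosphorylation were described in PPL1-γ1pedc dopamine neurons with and without knockdown of Stromalin, which is part of the cohesin ring. Genes were taken by symbol, as those beginning with ND-, Sdh, UQCR, COX and a digit, or ATPsyn, and numbered 81 of 17737 genes in the count table. By complex, 40 belonged to complex I, 7 to complex II, 8 to complex III, 11 to complex IV and 15 to complex V. Of the 81 genes, 18 are paralogs, with the symbol of another subunit and an L, or an L and a digit, added, and 63 are not.

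Each of the 6 RNA-seq libraries was made from 25 neurons of larvae in the third instar, at 120 h after egg laying. The 3 control libraries came from ∆TH-D’-GAL4>+ animals and the 3 Stromalin KD libraries from ∆TH-D’-GAL4>UAS-StromalinRNAi_KK animals, and animals of both genotypes also carried UAS-dicer2 and UAS-mCD8:GFP. The driver marks the PPL1-γ1pedc neurons at this stage. GFP-positive cells were picked by hand through a glass pipette, those of a library coming from many pooled brains with the sexes not separated, and each library was collected on its own day.

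Total counts ran from 7790921 to 9625056 per library, of which rRNA genes held 16.55% to 30.3%. A gene was called found in a library at 10 counts or more, and 2298 to 4004 genes were found per library. The gene of Stromalin, SA, had 1372 counts in control 3 and 3 in Stromalin KD 1, and was at 0 elsewhere, so that the knockdown itself could not be measured in these libraries. All 4 dopamine markers (Vmat, DAT, ple and Ddc) and all 5 pan-neuronal markers were found in every library, and repo, alrm, ChAT, Gad1, Hml and He were at 0 in all of them. The 8 markers of other transmitters summed to 0 to 15.9 normalized CPM (CPM with the library size scaled by TMM) in the controls and to 49.0 to 295 in Stromalin KD, without overlap. The 9 fat body and blood cell markers summed to 1072 normalized CPM in control 2, to 728 in Stromalin KD 3 and to at most 58.5 in the other libraries. Of the 6 glia markers 4 had counts, with sums of 374 in control 2, 187 in Stromalin KD 1, 103 in Stromalin KD 2 and at most 8.22 elsewhere, and of the 4 neuroblast markers 1 had counts, up to 97.0, while dpn, ase and mira were at 0. The 3 Kenyon cell markers summed to between 221 and 903 in the 6 libraries. The part of any of these lists in the results that follow was not tested. Fewer cells of a type and less RNA per cell cannot be told apart in these pooled samples.

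Oxidative phosphorylation is the main source of ATP in neurons. Complex I takes electrons from NADH and complex II from succinate. Complex III hands them to cytochrome c and complex IV to oxygen, and complex V, the ATP synthase, uses the proton gradient built by complexes I, III and IV to make ATP. The innermost subunits of complexes I, III, IV and V are encoded in the mitochondrial genome, so that each of these complexes is assembled from products of both genomes, while complex II is wholly nuclear. In flies many subunit genes have a duplicate that is known mainly from the testis.

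Of the 81 genes, 52 (64.2%) were found in at least 1 library, against 5789 of 13834 protein-coding genes (41.8%). A further 5 had counts that stayed under 10 in every library: ND-24, ND-ASHI, ND-B12, COX8 and ATPsynE. The remaining 24 had 0 counts in all 6 libraries, 16 of them paralogs and 8 not: ND-B14.5B, ND-MNLL, ND-B8, ND-MWFE, ND-B15, SdhB, SdhD and UQCR-C2. A 0 in a library allows up to 3 counts, which is 0.293 to 0.426 normalized CPM, for counting error only.

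Without the paralogs, 50 of 63 genes (79.4%) were found in some library. Complex V was the most complete, with 10 of 11 genes found, followed by complex IV with 6 of 7, complex III with 5 of 6, complex I with 26 of 34 and complex II with 3 of 5. Within complex I, 6 of the 7 core genes, which carry the cofactors and the route of the electrons, and 20 of the 27 accessory genes were found. In an average library the order was wider. There, 51.5% of the complex V genes were found, 41.7% of complex III, 40.5% of complex IV, 33.3% of complex II and 22.1% of complex I, beside 21.0% of protein-coding genes. The share of complex I genes found in a library was thus close to that of any protein-coding gene, and 15 of its 26 found genes were found in 1 library only.

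**Figure D1:**
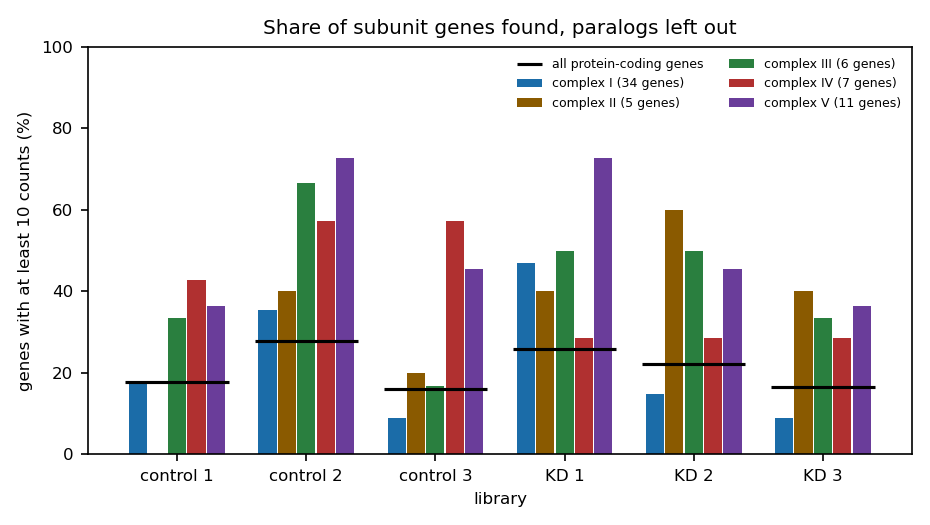
Percent of the genes of each complex (bars, paralogs left out) with at least 10 counts in each library, and percent of all protein-coding genes (black line). Complex V runs from 36.4% to 72.7% and lies above the line in all 6 libraries, whereas complex I lies below it in control 3, Stromalin KD 2 and Stromalin KD 3.

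The number of members found differed between libraries of the same genotype. Control 1, 2 and 3 held 15, 30 and 14 of the 81 genes, and Stromalin KD 1, 2 and 3 held 32, 18 and 14. These numbers moved with the number of all genes found, which was highest in control 2 (4004) and Stromalin KD 1 (3732). At the level of genotypes, 36 members were found in control and 40 in Stromalin KD, 24 of them in both, 12 in control only and 16 in Stromalin KD only. Of the 6127 genes found in all, 3660 were found in both, 1153 in control only and 1314 in Stromalin KD only. Without control 2 the control number was 20, and without Stromalin KD 1 the Stromalin KD number was 22.

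Most members were seen in few libraries. Of the 52 found, 22 (42.3%) were found in 1 library and 2 (3.85%) in all 6, where the shares over all found genes were 33.2% and 16.3%. A gene found in 1 library was not always near the limit, since the 22 held between 10 and 2099 counts there, with a median of 187. Of these 22 genes, 9 were found in Stromalin KD 1, 7 in control 2, 4 in Stromalin KD 2, 1 in control 1, 1 in Stromalin KD 3 and 0 in control 3. Among members that reached 1000 counts in a library, 15 of 19 had 0 counts in another. Control 2 and Stromalin KD 1, which held 16 of the 22, were also the libraries with the highest glia marker sums (374 and 187 normalized CPM), whose part was not tested. The median found member had 89.2% of its raw counts in its highest library, against 75.8% for all found genes. Those with a count in every library numbered 5: ATPsynC, ATPsynbeta, SdhA, UQCR-C1 and COX5A.

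**Figure D2:**
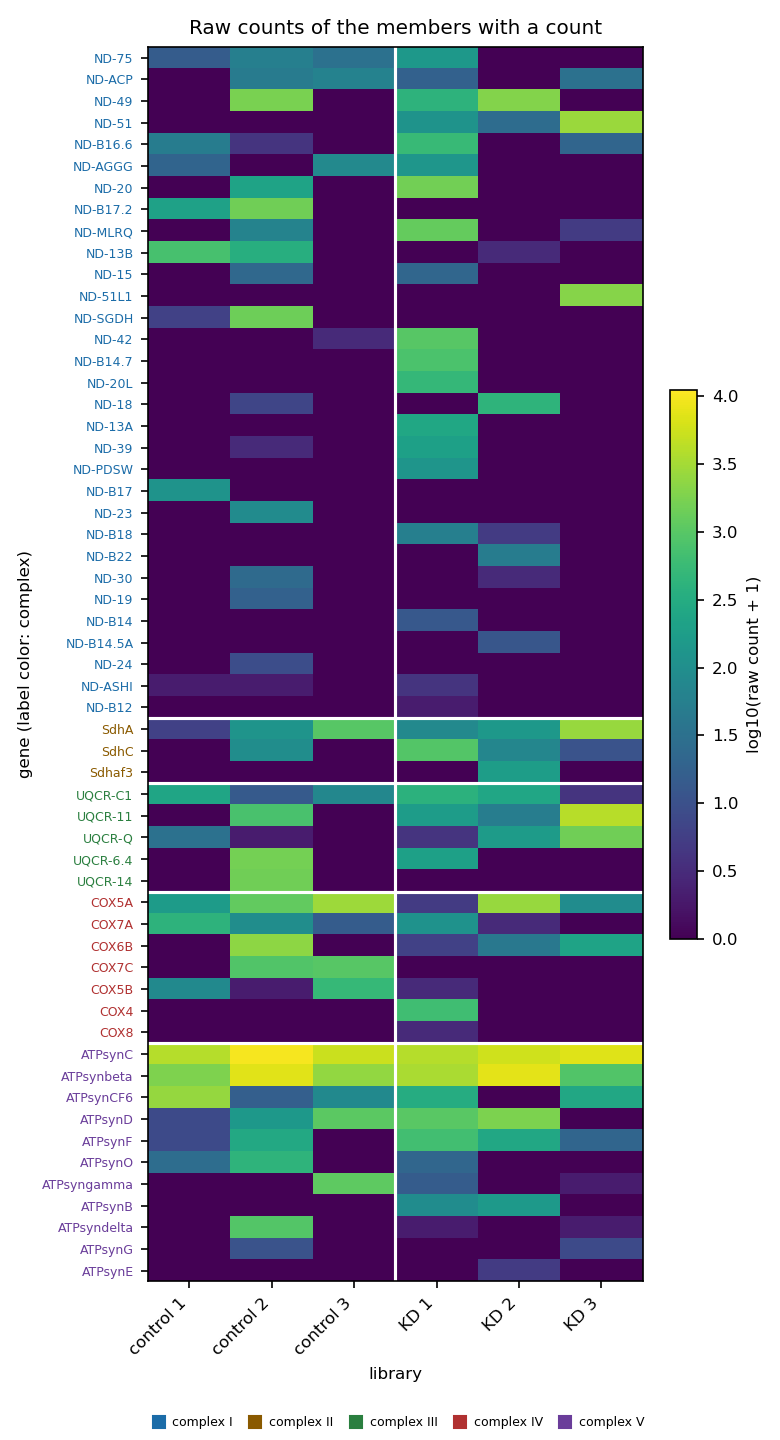
Raw counts, as log10(count + 1), of the 57 members with a count (rows, grouped and colored by complex) in the 6 libraries (columns, the white line dividing control from Stromalin KD). ATPsynC and ATPsynbeta form the only rows above 10 counts in every library, and most complex I rows have counts in 1 to 3 libraries.

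Subunit genes are short, with a median of 879.5 exonic bases for the 50 found and 762 for the 13 not found, against 1733 for protein-coding genes. Among genes of 400 to 1300 exonic bases, 37 of 48 subunit genes (77.1%) and 20.3% of 4676 protein-coding genes were found in some library. Across the 63 genes, exonic length and the number of libraries with at least 10 counts had a Spearman rho of 0.27, given as a description over genes of the same libraries. Over the 81 genes, libraries of the same genotype had Spearman rho of 0.322 to 0.570 in raw counts (6 pairs) and libraries of different genotypes 0.275 to 0.421 (9 pairs), ranges that overlap.

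Stromalin KD was then compared with control for each gene by edgeR's quasi-likelihood test on the counts. A gene entered the test with at least 10 counts in at least 2 libraries, which 30 of the 81 members and 4093 genes in all met. No member had an adjusted p under 0.05 (0 of 30, edgeR, Benjamini-Hochberg over 4093 genes), where 2 of all tested genes (0.0489%) did. The adjusted p of the members ran from 0.809 to 1.00. Unadjusted, 2 of the 30 members, ND-51 and COX7C, had a p under 0.05 (6.67%, against 3.23% of all tested genes). DESeq2 gave an adjusted p to 19 members and called 2 of them, COX7C and ND-B17.2, where it called 160 of 2930 genes (5.46%). Both were lower in Stromalin KD, a call that 2.32% of the 2930 genes received.

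The fitted changes were spread to both sides and were poorly determined. The log2 fold change (Stromalin KD against control) was above 0 for 16 of the 30 members (51.2% of all tested genes) and below 0 for 14 (48.8%), with a median of 0.21 against 0.074 for all tested genes. It was over 2 in size for 18 members (60.0%), against 41.9% of all tested genes. The standard errors, worked back from the F statistic of the test, ran from 1.06 to 6.21 with a median of 4.51, where the median over all tested genes was 3.79. Of the 30 members, 4 were found in control only (ND-B17.2, ND-13B, COX5B and COX7C) and 2 in Stromalin KD only (ND-51 and ATPsynB). These passed the count filter through the genotype in which they were high, so that their sign was set by the filter. In 1 of 30 members (3.33%), ND-51, the normalized CPM of the genotypes did not overlap, against 6.62% of all tested genes. ND-51 was higher in Stromalin KD, as were 3.84% of all tested genes without overlap. By complex, the median log2 fold change was 0.52 for the 11 tested genes of complex I, 2.43 for the 2 of complex II, 1.72 for the 4 of complex III, -2.80 for the 5 of complex IV and -0.17 for the 8 of complex V. These medians include the genes that passed the filter through 1 genotype, COX5B and COX7C among those of complex IV. They are a description only.

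**Figure D3:**
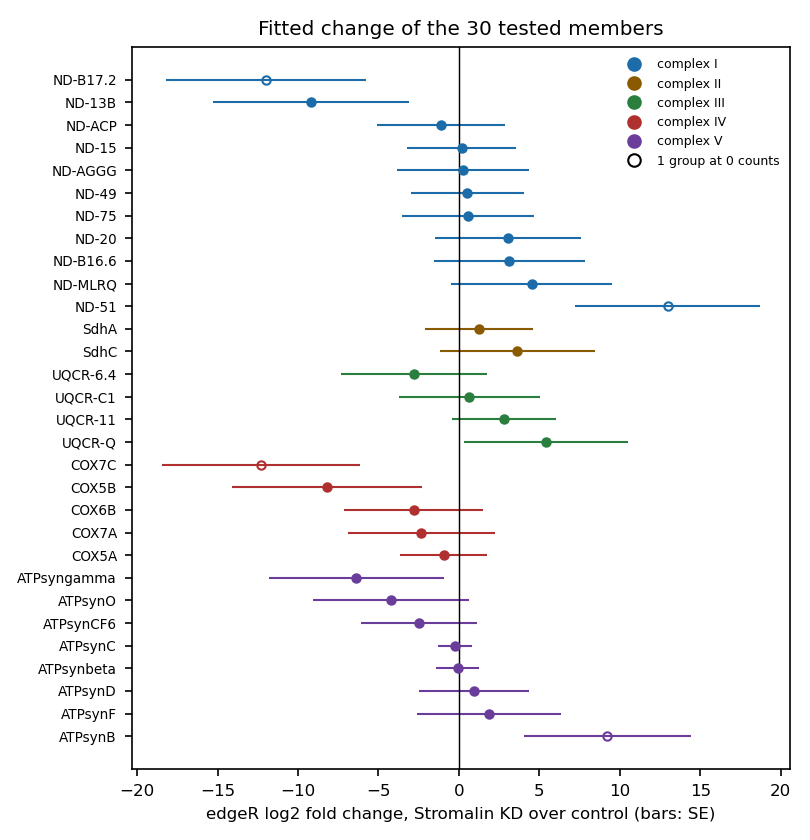
edgeR log2 fold change, Stromalin KD over control, of the 30 tested members with its standard error (worked back from the F statistic, n = 3 per genotype), colored by complex and ordered within it. Open points are genes with 0 counts in all libraries of 1 genotype, whose fitted value depends on the prior count and is no measure of size. The narrowest bars are those of ATPsynC (1.06) and ATPsynbeta (1.36), near 0, and all 5 complex IV genes lie to the left of 0, of which COX6B turned above 0 on log2(TPM + 1). Of these, COX5B and COX7C passed the count filter through the controls alone. ND-MLRQ, to the right of 0, is colored as complex I by its symbol.

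Complex V held the members with the highest mean TPM and the smallest standard errors. ATPsynC (chromosome arm 3R, 31216145 to 31219630, minus strand, BDGP6) encodes the c subunit, whose ring turns in the membrane as protons pass. It had 3953, 10037 and 5249 counts in control 1, 2 and 3 and 4037, 5690 and 7086 in Stromalin KD 1, 2 and 3. It was high in every library, and the genotypes overlapped. Its mean was 746 ± 214 normalized CPM in controls and 628 ± 205 in Stromalin KD (SD over 3 libraries; two-sided exact permutation p = 0.5, smallest possible 0.1). The edgeR log2 fold change was -0.25 (SE 1.06) and became 0.029 without control 2. In TPM, which corrects for gene length, its mean over the 6 libraries was 997, the highest of the 81 genes, and it ranked between 35 and 130 among protein-coding genes in each library.

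ATPsynbeta (chromosome 4, 1031484 to 1034917, plus strand) encodes the catalytic β subunit of the F1 head. Its counts were 1875, 7426 and 2494 in controls and 3435, 7594 and 883 in Stromalin KD. Control 2 and Stromalin KD 2 were the high libraries, about equal to each other, and Stromalin KD 3 was the lowest. The mean was 441 ± 249 normalized CPM in controls and 416 ± 319 in Stromalin KD, and the log2 fold change was -0.084 (SE 1.36). Its sign was not settled: the value was 0.51 without control 2, 0.37 without Stromalin KD 3 and 0.040 with TMMwsp factors. Together ATPsynC and ATPsynbeta made up 83.2% of the normalized CPM of the complex V genes taken by symbol, which leave out blw and sun.

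The other complex V genes varied strongly between libraries. ATPsynCF6, which encodes the coupling factor F6 of the peripheral stalk, had 2598, 16 and 82 counts in controls, against 316, 0 and 264 in Stromalin KD, so that control 1 alone stood high. Its log2 fold change was -2.48 (SE 3.60) and turned to 1.88 without control 1. ATPsynD, the stalk subunit d, had 7, 145 and 1056 counts in controls, against 1047, 1794 and 0 in Stromalin KD, a range of 0 to over 1000 within a genotype (log2 fold change 0.94, SE 3.43, and -0.41 on log2(TPM + 0.1)). ATPsynF, a membrane subunit, had 7, 282 and 0 counts in controls, against 656, 268 and 20 in Stromalin KD (1.87, SE 4.48). In each of these 3 genes the genotypes overlapped.

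In the remaining stalk and head genes, counts were concentrated in 1 or a few libraries. ATPsyngamma, the central rotor stalk, had 1123 counts in control 3, 14 in Stromalin KD 1, 1 in Stromalin KD 3 and 0 elsewhere. ATPsynO, the peripheral stalk subunit that holds the F1 head, had 27, 431 and 0 counts in controls, against 21, 0 and 0 in Stromalin KD. ATPsyndelta, also of the central stalk, had 935 counts in control 2 and 1 count each in Stromalin KD 1 and 3, and was not tested. ATPsynB, the stalk subunit b, was at 0 in all control libraries and at 93, 155 and 0 counts in Stromalin KD. With the control group set to a floor of 3 counts it was at least 71.5-fold higher in these Stromalin KD libraries, or 44.5-fold without Stromalin KD 2, but it did not pass the test (edgeR unadjusted p = 0.0766, DESeq2 adjusted p = 0.143) and Stromalin KD 3 lay at 0 with the controls. ATPsynG reached 10 counts in control 2 and ATPsynE at most 4.

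**Figure D4:**
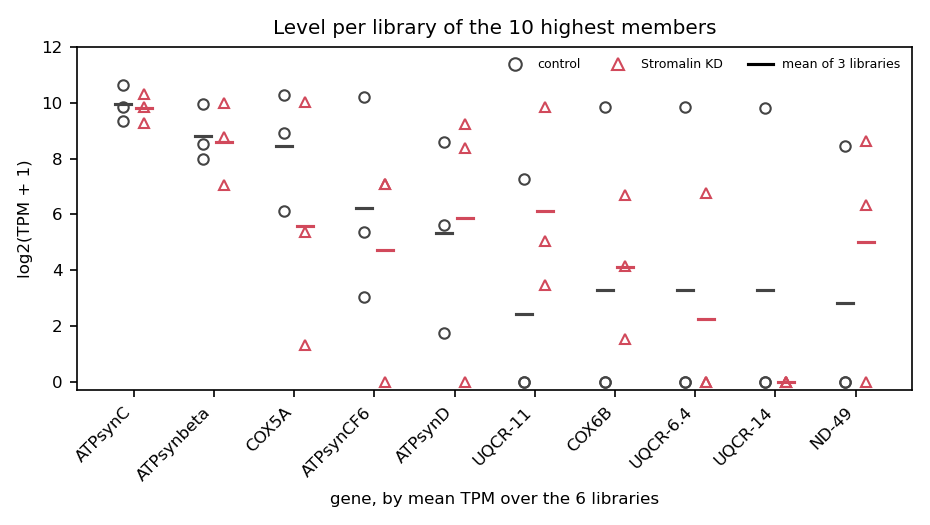
TPM, as log2(TPM + 1), of the 10 members with the highest mean TPM in each control (circle) and Stromalin KD (triangle) library, with the mean of 3 libraries as a bar. ATPsynC stays between 616 and 1606 TPM, whereas the other 9 genes spread over a wider range on this log scale and 7 of them are at 0 in at least 1 library.

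The highest member by TPM was not the same gene in each library. It was ATPsynC in control 2 (1606 TPM) and Stromalin KD 3 (1274 TPM), ATPsynCF6 in control 1 (1194 TPM), COX5A in control 3 (1248 TPM) and Stromalin KD 2 (1051 TPM), and ND-MLRQ in Stromalin KD 1 (688 TPM). Over the 6 libraries the order by mean TPM was ATPsynC (997), ATPsynbeta (531), COX5A (482), ATPsynCF6 (252), ATPsynD (229), UQCR-11 (186), COX6B (173), UQCR-6.4 (170), UQCR-14 (151) and ND-49 (137). ATPsynC lay above ATPsynbeta in 5 of 6 libraries. From ATPsynbeta on, the steps between neighbors in this order were smaller than the spread of each gene between libraries.

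In complex IV, cytochrome c oxidase, all 5 tested genes had a fitted change below 0 (COX6B turned above 0 on log2(TPM + 1)), and none passed edgeR's adjusted threshold. COX5B and COX7C reached 10 counts in controls only, so that their sign was set by the count filter. ND-MLRQ, counted in complex I by its symbol though its mammalian counterpart is now placed in complex IV, lay above 0 (4.52, SE 4.99). COX7C (FBgn0040773, chromosome arm 2R, 10048353 to 10050066, plus strand), a small accessory subunit in the inner membrane, had 0, 884 and 995 counts in controls, against 0 counts in all 3 Stromalin KD libraries. Control 2 and 3 stood alone, and control 1 lay at 0 with Stromalin KD. Its mean was 72.8 ± 67.0 normalized CPM in controls and 0 in Stromalin KD. With the latter group set to a floor of 3 counts, the gene was at least 658-fold lower in these Stromalin KD libraries, or 390-fold without control 3. The edgeR unadjusted p was 0.0466 and the adjusted p was over the threshold, while DESeq2 gave an adjusted p of 0.0270. The unadjusted p in edgeR was 0.103, 0.109 and 0.0856 without Stromalin KD 1, 2 and 3, 0.0624 with at least 10 counts in 1 library and 0.0678 with any count, and limma gave 0.0764 on log2(TPM + 1). An exact permutation of the 6 values gave p = 0.4. DESeq2 also called the gene with each library left out (adjusted p 3.56e-08 to 0.0210), but those fits called 700 to 816 genes, against 160 in the full comparison. The smallest values came without control 2 or control 3, where 1 control library alone held counts, so that these calls cannot show stability. Of its exonic bases, 15.7% overlap the gene oys on the opposite strand, and whether the counting used strand was not given in the sources used here.

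COX5A, a matrix-side accessory subunit (the counterpart of mammalian COX5A), was the highest complex IV gene by TPM. It had 168, 1210 and 2845 counts in controls, against 4, 2623 and 91 in Stromalin KD. In normalized CPM, Stromalin KD 2 lay between control 2 and control 3 and the other Stromalin KD libraries lay below all controls. The mean was 173 ± 183 normalized CPM in controls and 89.5 ± 145 in Stromalin KD, and the log2 fold change of -0.95 (SE 2.69) became 0.34 without control 3.

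COX5B, a zinc-binding subunit on the matrix side, had 82, 1 and 517 counts in controls, against 2, 0 and 0 in Stromalin KD. Its summed level per group was 328-fold higher in control by ratio, with a 95% counting interval from 90.3 to 2712 that covers counting error only, and DESeq2 gave an adjusted p of 0.0679. COX7A, a small membrane subunit, had 408, 94 and 14 counts in controls, against 115, 2 and 0 in Stromalin KD (fitted log2 change -2.35, SE 4.57). COX6B, which faces the intermembrane space, had 2280 counts in control 2 and 0 in the other controls, and 5, 41 and 226 in Stromalin KD. Its log2 fold change was -2.80 (SE 4.32) and turned to 9.49 without control 2, to 0.84 on log2(TPM + 1) and to 4.97 with replicate numbers as a block. COX4, the subunit through which ATP levels act on the mammalian enzyme, went the other way in the counts, with 637 in Stromalin KD 1 and 0 in every other library, and was not tested. COX8 had 2 counts in Stromalin KD 1.

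Complex I, the largest complex, was seen in fragments. Of its core genes, ND-75, the large iron-sulfur subunit, was found in the most libraries. It had 14, 54 and 32 counts in controls, against 145, 0 and 0 in Stromalin KD, so that it was present in all controls at low counts and in 1 Stromalin KD library (log2 fold change 0.54, SE 4.11). The sign rested on Stromalin KD 1, without which the value was -8.03, and was also negative with replicate numbers as a block (-6.26) and on log2(TPM + 1) (-0.87). ND-49, of the quinone site, had 0, 1738 and 0 counts in controls, against 421, 1992 and 0 in Stromalin KD, and control 2 and Stromalin KD 2 were about equal. Its log2 fold change of 0.52 (SE 3.52) became -0.063 without control 1, -0.057 without control 3 and -1.15 without Stromalin KD 2.

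ND-51 (FBgn0031771, chromosome arm 2L, 6060842 to 6062757, minus strand) encodes the subunit that binds NADH and the flavin at which electrons enter the complex. It had 0 counts in all 3 control libraries and 121, 26 and 2731 in Stromalin KD 1, 2 and 3. All Stromalin KD libraries lay above all controls, which held for no other tested member, and Stromalin KD 3 held most of the counts. Outside the members, mt:ND6, a complex I gene and 1 of the 13 mitochondrially encoded genes, also had counts in Stromalin KD only. It had 0 counts in all controls and 1005, 3 and 11 in Stromalin KD (edgeR unadjusted p = 0.0661). Stromalin KD 2 and 3 thus lay near the limit, and mt:ND6 passed the count filter through Stromalin KD alone, which set its sign. In the other tested mitochondrially encoded genes of complex I the genotypes overlapped. The mean of ND-51 in Stromalin KD was 116 ± 186 normalized CPM. This was at least 958-fold higher in these libraries with the control group set to a floor of 3 counts. This bound rested on Stromalin KD 3 and was 68.4-fold without it. For ND-51 the exact permutation p was 0.1, the smallest that 3 against 3 allows, and the edgeR unadjusted p was 0.0245, which did not pass after adjustment. ND-51 passed the count filter through Stromalin KD alone, so that its sign was set by the filter. Its p-values are a description only. DESeq2 gave ND-51 no p in the full comparison because of its outlier filter, and without that filter an adjusted p of 0.000598. The ND-51 unadjusted p in edgeR was over 0.05 without control 1 (0.0506), without control 2 (0.0609), without Stromalin KD 3 (0.0545) and in the fit with the replicate block (0.0964), and under 0.05 without each of the other 3 libraries (0.0214 to 0.0435). In limma it was 0.0832 on log2(TPM + 1) and 0.0626 on log2(TPM + 0.1). The DESeq2 adjusted p was 0.0908 without Stromalin KD 3. The summed markers of other transmitters were likewise higher in every Stromalin KD library than in every control library (49.0 to 295 against 0 to 15.9 normalized CPM), and their part in the ND-51 counts was not tested.

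The other core genes had counts in 1 or 2 libraries each. ND-20, an iron-sulfur subunit next to the quinone site, had 221 counts in control 2 and 1532 in Stromalin KD 1 and 0 elsewhere. ND-23, a further iron-sulfur subunit, had 90 counts in control 2 only. ND-30 had 24 counts in control 2 and 2 in Stromalin KD 2, and ND-24, the partner of ND-51 in the NADH module, had 8 counts in control 2 and 0 in the other libraries, those with ND-51 included.

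Among the accessory genes, ND-B17.2 (FBgn0031436, chromosome arm 2L, 2579201 to 2580172, minus strand), the counterpart of human NDUFA12, had 205, 1509 and 0 counts in controls, against 0 in all Stromalin KD libraries. Control 1 and 2 stood above the rest and control 3 lay at 0 with Stromalin KD. Its mean in control was 58.9 ± 78.1 normalized CPM, and the gene was at least 532-fold lower in these Stromalin KD libraries, or 132-fold without control 2. ND-B17.2 passed the count filter through the controls alone, so that its sign was set by the filter. Its edgeR unadjusted p was 0.0536 and its exact permutation p 0.4. DESeq2 gave an adjusted p of 0.0338, which rose to 0.0811 without control 2 and to 0.0504 without independent filtering, and stayed under 0.05 without each of the other 5 libraries. The fits with a library left out called 700 to 816 genes, against 160 in the full comparison, and cannot show stability.

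ND-13B, the counterpart of human NDUFA5, had a similar layout, with 746, 349 and 0 counts in controls, against 0, 2 and 0 in Stromalin KD. The ratio of control over Stromalin KD was 598, with a 95% counting interval from 165 to 4945, and the DESeq2 adjusted p was 0.0587. ND-SGDH, a membrane-arm subunit, had 5, 1419 and 0 counts in controls, against 0 in Stromalin KD, where it was at least 420-fold lower, or 3.21-fold without control 2, but with 10 counts in 1 library only it was not tested. ND-B17 had 119 counts in control 1 only and ND-19 had 17 in control 2 only.

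Other accessory genes had their counts mostly in Stromalin KD 1, the Stromalin KD library with the most genes found. In that library ND-MLRQ had 1226 counts, ND-42 had 990, ND-B14.7 had 793, ND-B16.6 had 542, ND-13A had 262, ND-39 had 198, ND-AGGG had 135 and ND-PDSW had 128. Of these genes, ND-B14.7, ND-13A and ND-PDSW were at 0 in control and the others had at most 79 counts in a control library. ND-MLRQ is the counterpart of mammalian NDUFA4, which is now placed in complex IV, and its log2 fold change was 4.52 (SE 4.99). ND-ACP, the acyl carrier protein, also works outside complex I in fatty acid and iron-sulfur synthesis and was the only accessory gene found in 4 libraries. It had 0, 47 and 62 counts in controls, against 17, 0 and 32 in Stromalin KD, overlapping between genotypes, with a log2 fold change of -1.13 (SE 3.98). In Stromalin KD 2 the accessory genes with most counts were ND-18, at 426, and ND-B22, at 50. Low counts were seen in ND-15 (22 counts in control 2 and 21 in Stromalin KD 1), ND-B18 (55 in Stromalin KD 1), ND-B14 (12 in Stromalin KD 1) and ND-B14.5A (11 in Stromalin KD 2).

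Complex II, succinate dehydrogenase, is also an enzyme of the citric acid cycle. SdhA, the flavoprotein that oxidizes succinate, had counts in every library, 5, 124 and 1005 in controls and 81, 144 and 2631 in Stromalin KD. Stromalin KD 3 and control 3 were the high libraries, control 1 was the lowest, and the genotypes overlapped. The mean was 48.7 ± 73.4 normalized CPM in controls and 114 ± 177 in Stromalin KD (exact permutation p = 0.6), with a log2 fold change of 1.23 (SE 3.36) that became -2.05 without Stromalin KD 3. SdhC, a membrane anchor, had 0, 94 and 0 counts in controls, against 914, 71 and 10 in Stromalin KD. It was found in all Stromalin KD libraries and in 1 control library, whose level lay within the Stromalin KD range (3.62, SE 4.82). The assembly factor gene Sdhaf3 had 176 counts in Stromalin KD 2 and 0 elsewhere. SdhB, the iron-sulfur subunit, and SdhD, the other anchor, were at 0 in all 6 libraries, so that no library held transcripts of all 4 subunits at this depth.

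Complex III varied from library to library, and 1 of its genes, UQCR-C1, had counts in all 6. UQCR-C1, a core protein on the matrix side, had 240, 13 and 75 counts in controls, against 395, 248 and 3 in Stromalin KD. The lowest value was in Stromalin KD 3 and the genotypes overlapped (log2 fold change 0.63, SE 4.37, and -0.32 without Stromalin KD 1). UQCR-11, a small subunit, had 0, 776 and 0 counts in controls, against 170, 51 and 4176 in Stromalin KD. Every Stromalin KD library had counts against 1 control, which lay within their range, and the log2 fold change of 2.81 (SE 3.23) became -1.04 without Stromalin KD 3. UQCR-Q, also small, had 31, 1 and 0 counts in controls, against 3, 167 and 1464 in Stromalin KD (5.42, SE 5.08, exact permutation p = 0.2).

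UQCR-14 and UQCR-6.4 were high in control 2. UQCR-14 (chromosome X, 16286288 to 16286988, plus strand) had 1499 counts there and 0 in all other libraries. All of its exonic bases lie opposite the gene CG32576, which had 1 count, also in control 2. UQCR-6.4, a small membrane subunit, had 1622 counts in control 2 and 199 in Stromalin KD 1 and 0 elsewhere (log2 fold change -2.78, SE 4.54). UQCR-C2, the partner of UQCR-C1 in the core, was at 0 in all libraries. UQCR-14 and UQCR-6.4 had their highest counts in control 2, and UQCR-11 and UQCR-Q theirs in Stromalin KD 3. These libraries also had the most fat body and blood cell markers (1072 and 728 normalized CPM), whose part was not tested. UQCR-C1 went the other way, with its lowest counts of each genotype there, 13 and 3. UQCR-Q had 1 count in control 2, and UQCR-14 and UQCR-6.4 had 0 in Stromalin KD 3.

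Summed over its genes taken by symbol, complex V was the most even. In normalized CPM it had 1202, 1885 and 1326 in controls and 1112, 1519 and 1001 in Stromalin KD, a ratio of Stromalin KD over control of 0.82 (0.86 in TPM). The complex V genes blw and sun, outside the symbol rule, are not in this sum. Mean normalized CPM of blw was 428 in controls and 154 in Stromalin KD, and that of sun 17.1 and 2.74. Complex IV had 93.4, 437 and 580 in controls and 88.5, 261 and 38.4 in Stromalin KD, a ratio of 0.35 (0.36 in TPM), and the lowest control lay within the Stromalin KD range. ND-MLRQ, counted in complex I, is not in this sum and had means of 2.05 in controls and 47.4 in Stromalin KD. The complex IV genes cype and levy, outside the symbol rule, are not in it either. Mean normalized CPM of cype was 0.160 in controls and 33.8 in Stromalin KD, and that of levy 0.717 and 0.0771. Leaving out each library in turn kept the ratio of the complex IV genes in the sum between 0.17 and 0.49. These sums are a description, and no test was made of them.

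The sums of complexes I, II and III rested on single libraries. Complex I had 165, 545 and 23.2 normalized CPM in controls and 821, 246 and 592 in Stromalin KD, a ratio of 2.27 that became 5.89 without control 2, and 1.54 in TPM. Complex II had 0.71, 21.3 and 133 in controls and 115.1, 38.3 and 320 in Stromalin KD, a ratio of 3.05 that became 14.3 without control 3. In TPM the complex II sums were 0.59, 47.1 and 128 in controls and 313, 161 and 345 in Stromalin KD, and here the genotypes did not overlap, while in normalized CPM they did. Of the 161 TPM in Stromalin KD 2, 119 came from the assembly factor gene Sdhaf3, and for SdhA and SdhC alone the sum there was 41.7 TPM, below the 47.1 and 128 of control 2 and 3, so that the genotypes overlapped in TPM as well. Complex III had 38.5, 382 and 9.94 normalized CPM in controls and 88.7, 45.6 and 684 in Stromalin KD, a ratio of 1.90 that was 11.3 without control 2, 0.47 without Stromalin KD 3 and 0.87 in TPM. All 81 genes together had means of 2281 ± 903 normalized CPM in controls and 2324 ± 277 in Stromalin KD, a ratio of 1.02, and took 0.136% to 0.348% of the counts of a library.

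**Figure D5:**
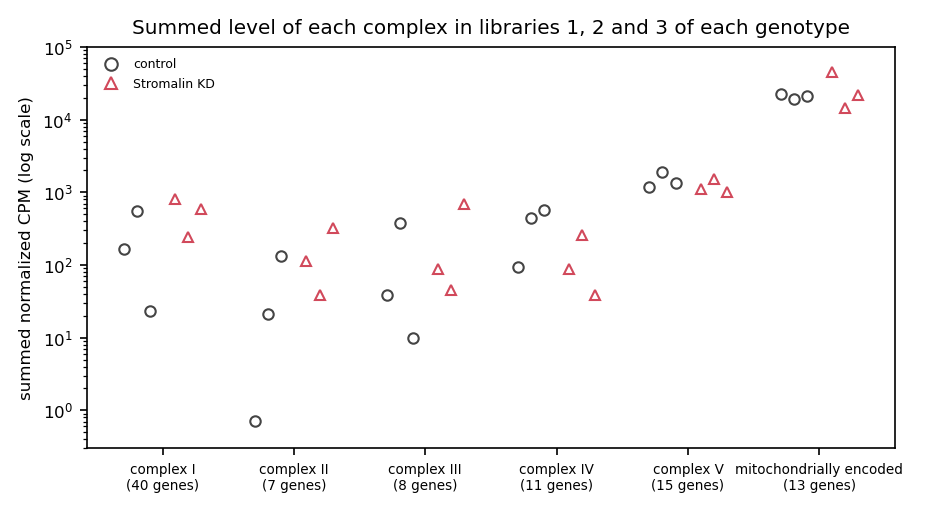
Summed normalized CPM (log axis) of the genes of each complex, paralogs included, and of the 13 mitochondrially encoded genes, in control (circles) and Stromalin KD (triangles) libraries 1, 2 and 3 from left to right. Complex V stays between 1001 and 1885, complex IV (ND-MLRQ being counted in complex I) lies lower in Stromalin KD on average with overlap, and complexes I, II and III spread widely within each genotype. Nuclear genes outside the symbol rule, blw, sun, cype and levy among them, are not in these sums.

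Of the 18 paralogs, 2 had counts, each in 1 Stromalin KD library. ND-51L1 (chromosome arm 2R, 17595267 to 17597409, plus strand) had 2099 counts in Stromalin KD 3, the library in which its parent ND-51 had 2731, and 0 elsewhere. In TPM the paralog was at 349 and the parent at 611 there. ND-20L (chromosome arm 3R, 29515717 to 29516527, plus strand) had 497 counts in Stromalin KD 1, where its parent ND-20 had 1532, and 0 elsewhere, at 191 and 346 TPM. In both pairs the paralog had counts only in the library in which its parent was highest, and for reads that match both copies the counting rule was not known from the labels or methods. A further 16 paralogs were at 0 in all libraries: SdhAL, SdhBL, ND-24L, ND-49L, ND-B14.5AL, ND-51L2, COX5BL, COX4L, COX7AL, COX6AL, UQCR-14L, UQCR-11L, ATPsynGL, ATPsynepsilonL, ATPsynbetaL and ATPsynCF6L. Of the 7 testis markers in the table, 1 had a count, and their sum was at most 0.121 normalized CPM in any library.

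Several nuclear genes of the pathway have symbols that fall outside the rule. Of 11 such genes 8 were found and 5 tested, and 0 passed edgeR's test (0 at an unadjusted p under 0.05 and 0 in DESeq2), with 2 fitted changes above 0 and 3 below. blw, the α subunit that forms the F1 head with ATPsynbeta, had 3208, 967 and 5533 counts in controls, against 213, 4337 and 97 in Stromalin KD, with 2 of 3 Stromalin KD libraries below all controls (log2 fold change -1.48, SE 1.73). sesB, the ADP/ATP carrier of the inner membrane, was the steadiest, with 11481, 16699 and 4870 counts in controls, against 6422, 16675 and 24626 in Stromalin KD (0.46, SE 0.71). Ant2, the neighboring carrier gene, had 18 counts in Stromalin KD 1 and 1 in Stromalin KD 2.

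Cyt-c-p, the somatic cytochrome c, had 191, 335 and 1 counts in controls, against 352, 43 and 1776 in Stromalin KD, and Cyt-c1 of complex III had 1493, 30 and 1 in controls and 248, 798 and 0 in Stromalin KD. cype, a complex IV subunit, had 868 counts in Stromalin KD 1 and at most 7 elsewhere. sun, the ε subunit of ATP synthase, had 526 counts in control 2 and 71 in Stromalin KD 1. levy, a complex IV subunit, reached 22 counts in control 2 and RFeSP, the Rieske iron-sulfur protein of complex III, 7 in control 2, while ox and Cyt-c-d were at 0.

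The mitochondrially encoded subunits of the same complexes were more abundant and were found in more libraries. All 13 were found, 8 of them in every library. They summed to 51056 ± 5381 TPM in controls and 66214 ± 35033 in Stromalin KD (SD over 3 libraries), where the 81 nuclear genes summed to 5278 ± 3016 and 4678 ± 198. Their summed level was 22813, 19260 and 21253 normalized CPM in controls and 45543, 14343 and 21958 in Stromalin KD, a ratio of 1.29 with overlap between genotypes. Of the 11 tested, 0 passed edgeR's adjusted threshold or were called by DESeq2, and 1 had an unadjusted p under 0.05. This was mt:CoI, the catalytic subunit of complex IV, with 83094, 91090 and 69407 counts in controls, against 187103, 59967 and 122769 in Stromalin KD (fitted log2 change 0.50, SE 0.23, edgeR unadjusted p = 0.0275). Its level in Stromalin KD spanned that of all controls, so that the libraries overlapped. The exact permutation p was 0.5 and the DESeq2 unadjusted p was 0.828.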

How the data were processed

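The authors deposited raw counts per gene, made with HTSeq 0.9.1 on BDGP6 according to the submitters' processing notes. Neither aligner nor strand setting was given in the sources used here. The deposited TPM were used for levels between genes. A deposited signal table (counts after DESeq2 size factors) served only as an alternative for the sums by complex. The authors' own comparison (fold changes and p-values) was not used.

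Counts were fitted in edgeR 4.0.16 (TMM factors, quasi-likelihood test, two-sided) for the 4093 genes that reached 10 counts in 2 or more of the 6 libraries, with Benjamini-Hochberg adjustment and a threshold of 0.05. DESeq2 1.42.0 was run beside it. The SE given with an edgeR change is the size of the log2 fold change divided by the square root of the F statistic. It is not a fitted standard error and is only a rough guide where a group is at 0 or the change is near 0. Libraries were grouped by genotype as labeled and not paired, since each had its own collection day. Fold bounds use a floor of 3 counts over the group at 0. Bounds without a library and complex II without Sdhaf3 were added after seeing the data. Genes were placed by ID in the BDGP6 annotation of Ensembl release 115, in which all 81 members matched.

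Given in full were genes found in at least 4 libraries, with an edgeR unadjusted p under 0.05 or a DESeq2 call, among the 10 highest by TPM, with 1000 counts in 1 library and under 10 elsewhere, or without overlap, besides Sdh genes, paralogs with a count, COX7C and nuclear pathway genes outside the rule. Of the mitochondrially encoded genes only mt:CoI and mt:ND6 were given singly. Other members given with a test were chosen after their values were seen. The members and lists were chosen with earlier results of these data known. Alternatives were limma 3.58.1 on log2(TPM + 1) and log2(TPM + 0.1), other factors and filters, a replicate block, and each library left out, the last in DESeq2 having been added after seeing the data. The steps were run on simulated data. Recovery of the set changes was required there only at a spread far below that of these libraries.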

Additional observations from a re-analysis of the deposited data

How the results depend on the processing

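Precision was limited by the libraries, with a common coefficient of variation of 228% and 3 libraries per genotype, and p-values say little about stability here. No member was called in edgeR or limma under any alternative run. DESeq2 called 2 members among 160 genes, 15 among 1474 without Cook's filtering and 1 among 100 without independent filtering. With 1 library left out, which was added after seeing the data, it called 6 to 10 members among 700 to 816 genes. Over all genes, where 2 passed in edgeR, 4 passed with limma on log2(TPM + 1) and also on log2(TPM + 0.1). It was 0 with TMMwsp factors, total counts only, rRNA genes left out, at least 10 counts in 3 libraries or filterByExpr, and 1 with at least 10 counts in 1 library or any count. With a library left out it was 0 (without Stromalin KD 2) to 3 (without control 2).

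The replicate numbers share no collection day, and the deviations of same-numbered libraries had correlations of -0.020, -0.0094 and 0.024, so that the numbers do not pair the libraries. With the replicate number as a block 1 gene and 0 members were called, and the log2 fold change was -6.26 for ND-75 and 4.97 for COX6B.

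Of 19 members with a log2 fold change under alternatives, 11 turned sign in at least 1 of them. ND-75 was -0.87 on log2(TPM + 1) and -2.76 on log2(TPM + 0.1), and COX6B was 0.84 and 2.85. ATPsynD was -0.41 on log2(TPM + 0.1) and ATPsynbeta 0.040 with TMMwsp factors. With a library left out, the log2 fold change ran from -8.03 to 1.19 for ND-75, -1.15 to 12.41 for ND-49, -2.05 to 4.14 for SdhA, -0.32 to 2.06 for UQCR-C1, -1.04 to 13.54 for UQCR-11, -4.81 to 0.34 for COX5A, -5.01 to 9.49 for COX6B, -0.75 to 0.51 for ATPsynbeta, -3.12 to 1.88 for ATPsynCF6 and -0.54 to 0.029 for ATPsynC. In the other 8 members the sign held. Among these, COX7C, ND-B17.2 and ND-51 had 0 counts in all libraries of 1 genotype, so that no alternative could turn their sign. Leaving out control 2 lowered the members found in control from 36 to 20 (range 20 to 35), and leaving out Stromalin KD 1 those found in Stromalin KD from 40 to 22 (22 to 39). The ratio of summed normalized CPM ran from 1.56 to 5.89 for complex I, 1.48 to 14.3 for complex II and 0.47 to 11.3 for complex III, and that of complex II was also 14.3 without SdhA. For complexes IV and V it stayed below 1. The cause of these changes was not tested.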
